A study of Mus musculus with 9 samples.

Results

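Secreted Wnt antagonists and mesenchymal Wnt ligands were followed in Shox2-lineage cells of the mouse limb. The set has 10 genes, taken by symbol from a deposited expression table of 24102 rows, and each of them has 1 row. They are Dkk1, Dkk2, Dkk3, Sfrp1, Sfrp2, Frzb and Wif1, which encode antagonists or their relatives, and Wnt5a, Wnt5b and Wnt11, which encode ligands. Mutant cells carried Cre on 1 Shox2 allele and a second allele written as minus, Shox2(Cre/-);Rosa(mTmG), and control cells carried the same Cre allele with a normal second allele, Shox2(Cre/+);Rosa(mTmG). Both groups came from E12.5 limbs, and both hold the Rosa reporter, which turns green where Cre made from the Shox2 locus has acted. The sorted green cells are thus cells that have expressed Shox2 or that descend from such cells. Controls carry the Cre allele too, and whether it still makes Shox2 protein is not stated in the labels. The labels list 4 mutant, 3 control and 2 wild-type whole-limb samples, while the expression table gives 6 columns of values, with a mutant and a control column for each of 3 litters. Whole limbs are not analysed here, and no source used here gives the number of embryos behind a column. Litter 1 has 2 mutant samples but 1 mutant column, which may hold either or both.

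Wnt proteins are lipid-modified signals that bind Frizzled receptors. In the canonical branch they also engage the co-receptors Lrp5 and Lrp6 and stabilise beta-catenin, whereas Wnt5a, Wnt5b and Wnt11 act mainly through branches that steer cell polarity and movement. Dickkopf proteins such as Dkk1 act on the co-receptors, and secreted Frizzled-related proteins and Wif1 bind the Wnt ligand itself. In the limb bud Wnt5a from the mesenchyme is needed for outgrowth along the proximal to distal axis, and several of the antagonists mark the cartilage condensations and the tissue around them.

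Shox2 stood at 16.7, 18.3 and 96.9 FPKM in the mutants of litters 1, 2 and 3, against 217, 222 and 209.7 FPKM in the controls, so the litter 3 mutant kept more Shox2 transcript than the other mutants. FPKM is a level scaled to transcript length and library size. Eif2s3y and Kdm5d, which lie on the Y chromosome, had 0 FPKM in the mutant of litter 2, against 14.4 to 23.9 FPKM and 4.79 to 8.86 FPKM in all other columns, so in litter 2 sex composition and genotype cannot be told apart. Xist, a transcript of female cells, stood at 36.8, 177.5 and 68.4 FPKM in the mutants of litters 1, 2 and 3. In the controls it stood at 12.1, 34.6 and 73.0 FPKM, so the sex mix may differ within litter 1 too. Of a list of 10 limb mesenchyme markers, the 9 with a row of their own were all tested, and they summed to between 933 and 1387 FPKM in the mutants and between 1143 and 1334 FPKM in the controls. Col1a2, the largest part of these sums, was lower without overlap, at 521, 706 and 666 FPKM in the mutants against 717, 735 and 724 FPKM in the controls. Prrx1 was higher in the mutant of each litter, and the others changed direction between litters. Red cell markers summed to between 229 and 716 FPKM in the mutants and between 328 and 596 FPKM in the controls. Depth is unknown, and every error below is an SD over n = 3 columns per group unless it is named an SE.

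Levels per length spanned a wide range within the set, in much the same order in both genotypes. Sfrp2 was the most abundant member, at 309.8 ± 72.5 FPKM in the mutants and 298 ± 59.9 FPKM in the controls (SD, n = 3), and its mean over all columns lay above 99.2% of the 12314 tested rows. Dkk1 was the least abundant, at 1.93 ± 0.575 FPKM in the mutants and 2.29 ± 1.21 FPKM in the controls (SD, n = 3). In the mutants the order from high to low was Sfrp2, Dkk2, Wnt5a, Sfrp1, Wnt11, Frzb, Wif1, Dkk3, Wnt5b and Dkk1. In the controls it was Sfrp2, Dkk2, Wnt5a, Wnt11, Sfrp1, Wif1, Frzb, Dkk3, Wnt5b and Dkk1. Only Sfrp2 at the top and Dkk1 at the bottom stood apart from their neighbours in both genotypes, without overlap of the 3 columns, and in the controls Wif1 also stood apart from Frzb. All other neighbours overlapped. Both litter 1 columns were the lowest of their genotype for 5 members, namely Sfrp1, Sfrp2, Wif1, Wnt5a and Wnt5b, as they were for 36.7% of tested rows.

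**Figure D1:**
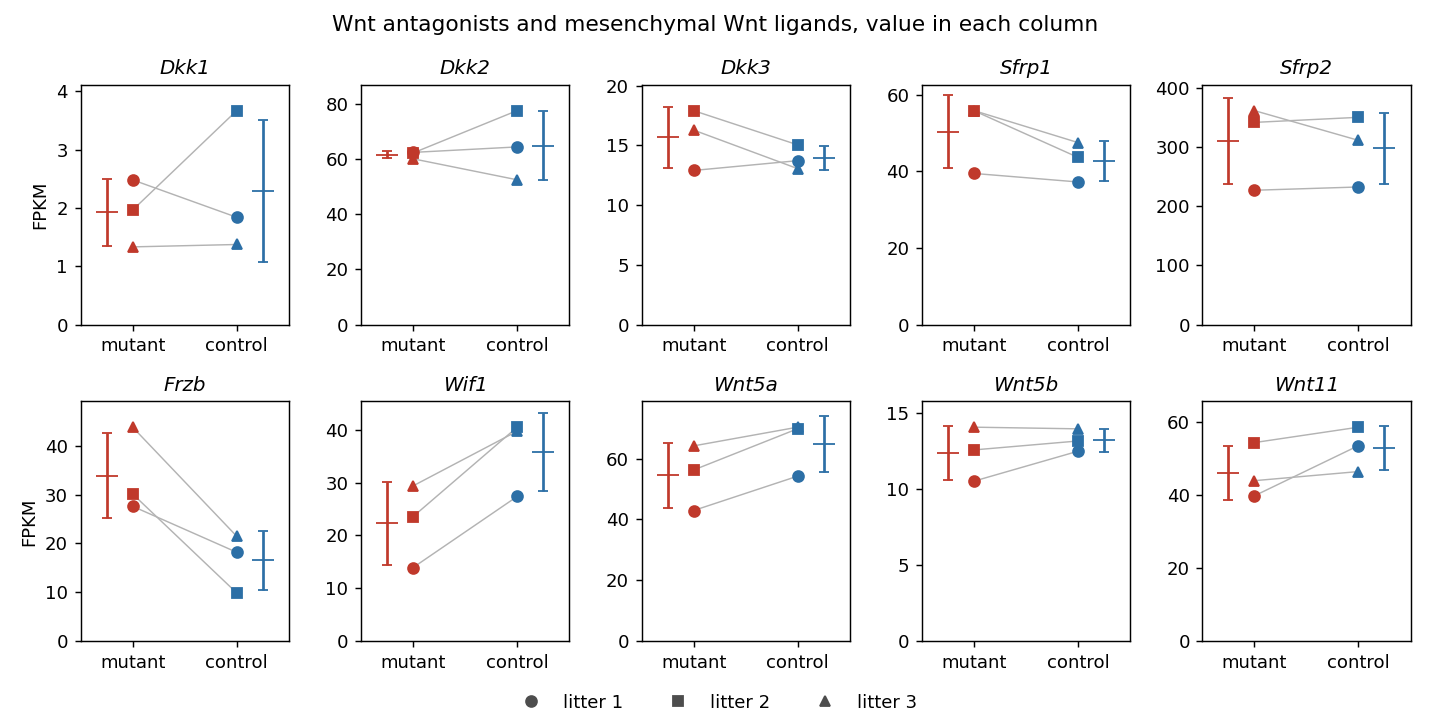
FPKM of each of the 10 genes in the 3 mutant columns (red, left) and the 3 control columns (blue, right), with a marker shape per litter, a grey line joining the columns of a litter, and the mean and SD (n = 3) beside them. Frzb is higher and Wif1 lower in the mutant of every litter, and the Frzb columns of the 2 groups do not overlap.

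Frzb and Wif1 differed most between the genotypes, in opposite directions. Frzb, also called Sfrp3, encodes a secreted Wnt-binding protein of cartilage condensations and joints. It stood at 27.6, 30.1 and 43.8 FPKM in the mutants of litters 1, 2 and 3, against 18.2, 9.89 and 21.5 FPKM in the controls. Every mutant column lay above every control column, as for 4.22% of tested rows, and the mutant held 152%, 305% and 204% of its litter's control. The means were 33.9 ± 8.71 FPKM in the mutants and 16.5 ± 5.98 FPKM in the controls (SD, n = 3), or 2.05-fold higher, with a log2 difference of 1.03 (SE 0.31) on the log2(FPKM + 1) scale. A difference at least this high was found for 72 of the 12314 tested rows, or 0.585%.

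Wif1 encodes Wnt inhibitory factor 1, which also binds Wnt ligands outside the cell. It stood at 13.9, 23.6 and 29.4 FPKM in the mutants of litters 1, 2 and 3, against 27.4, 40.5 and 39.7 FPKM in the controls. The mutant held 50.9%, 58.2% and 74.0% of its litter's control, although the litter 3 mutant lay above the litter 1 control, so that the groups overlapped. The means were 22.3 ± 7.80 FPKM in the mutants and 35.9 ± 7.36 FPKM in the controls (SD, n = 3), a log2 difference of -0.70 (SE 0.30). A difference at least this low was found for 89 tested rows, or 0.723%. Within each genotype Wif1 was lowest in litter 1, and without the litter 1 mutant its log2 difference was -0.41. A fit with litter as a block and without the litter 1 pair gave -0.59.

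Neither gene passed the threshold of 0.05 in limma, as none of the 12314 tested rows did (0%). Shox2 itself, at a log2 difference of -2.75 (SE 0.64) and without overlap, did not pass either. Its limma adjusted p was 0.803, or 0.0998 with litter as a block. For Frzb and Wif1 the adjusted p in limma was 1.00, and the unadjusted p was 0.0145 for Frzb and 0.0521 for Wif1. With litter as a block the log2 differences were the same and their SE smaller, 0.18 for Frzb and 0.13 for Wif1, and both came closer (limma adjusted p = 0.104 and 0.116, unadjusted 0.000757 and 0.00105) without passing. The blocked fit without the litter 2 pair called both, at log2 differences of 0.78 for Frzb (limma adjusted p = 3.68e-05) and -0.67 for Wif1 (adjusted p = 0.000467). Without the litter 3 mutant, which kept more Shox2, the log2 differences were 0.83 for Frzb and -0.92 for Wif1, and neither passed. That fit had no block and kept the litter 3 control, so the litters were not balanced. The blocked fit without the litter 3 pair gave 1.04 for Frzb and -0.84 for Wif1 (limma adjusted p = 0.131 and 0.120). The fit without litter 2 rests on 2 pairs with 1 residual degree of freedom, and it called 534 rows in all, against 0 with all 3 pairs. The adjusted p over the alternatives ran from 3.68e-05 to 1.00 for Frzb and from 0.000467 to 1.00 for Wif1.

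The order of the pair by level was opposite in the 2 genotypes within every litter, a comparison chosen after the values were seen and given without a test. The ratio of Frzb to Wif1, both per length, was 1.98, 1.28 and 1.49 in the mutants of litters 1, 2 and 3, against 0.665, 0.244 and 0.541 in the controls. All 3 mutant columns lay above 1 and all 3 control columns below it. Bulk values cannot tell more cells of a type from more RNA per cell. The 8 cartilage markers had median log2 differences of -0.14, 0.49 and 0.11 in litters 1, 2 and 3, where Frzb had 0.57, 1.51 and 0.99. Their summed level ran from 722 to 1207 FPKM in the mutants and from 830 to 959 FPKM in the controls. Matn1 and Matn4 were lower in the mutant of each litter, as 22.3% of tested rows were. They stood at 58.6%, 97.9% and 61.8%, and at 64.6%, 81.9% and 79.6%, of the control, with overlap. The other cartilage markers changed direction between litters. Endothelium markers summed to 11.4, 13.2 and 14.3 FPKM in the mutants of litters 1, 2 and 3, against 15.7, 19.3 and 14.8 FPKM in the controls, so every mutant column lay below every control column. Of the 8 endothelium markers, Kdr, Emcn and Esam were lower without overlap, as 5.03% of tested rows were. Emcn and Esam were too low to be tested. The others overlapped, and Egfl7, the most abundant, stood at 61.0%, 194.7% and 110.4% of the control in litters 1, 2 and 3. Pecam1, Cdh5 and Tie1 were higher in the litter 1 mutant and lower in the mutants of litters 2 and 3. Surface ectoderm markers summed to 16.3, 23.8 and 19.8 FPKM in the mutants, against 22.9, 43.1 and 26.9 FPKM in the controls. The sum was lower in the mutant of each litter. Of these 8 markers Krt18 and Fgf8 were lower without overlap, and Epcam was lower in each litter with overlap. Krt5, Krt14, Krt8, Cdh1 and Trp63 were higher in the litter 1 mutant, at 186.4%, 141.1%, 127.5%, 136.8% and 128.1% of the control. All of these were lower in the litter 2 mutant. The litter 2 control, the column with the least Frzb, held the highest sums of both lists, and of muscle and nerve markers, at 58.8 and 70.0 FPKM. Without that column the log2 difference of Frzb was 0.72. The part of these cells in the Frzb and Wif1 differences was not tested.

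**Figure D2:**
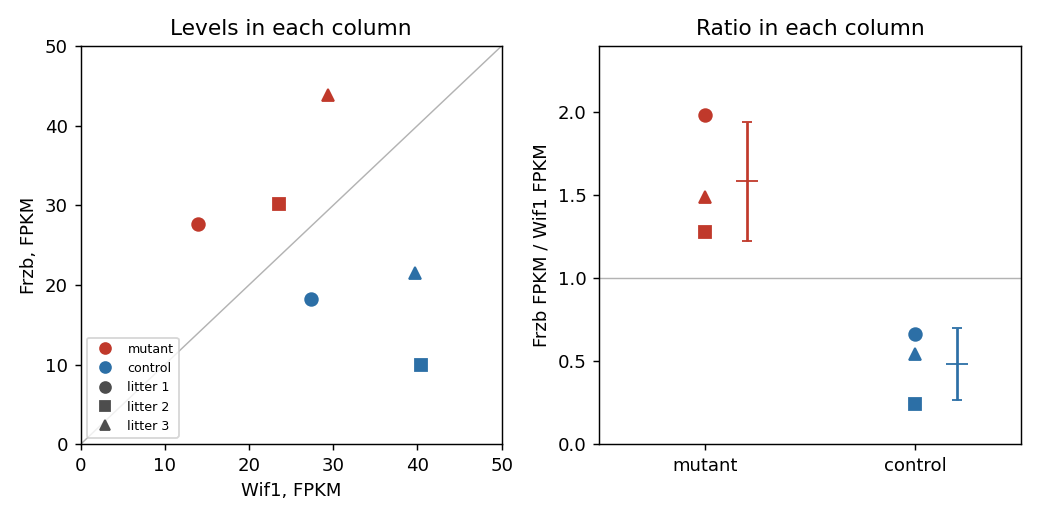
Left, Frzb against Wif1 in FPKM in each of the 6 columns, with the line of equal levels; right, the ratio of Frzb to Wif1 in each column with its mean and SD (n = 3). The mutant columns (red) lie above the line, at ratios of 1.28 to 1.98, and the control columns (blue) below it, at 0.244 to 0.665.

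Read against the whole table, 0 of the 10 members passed in limma, where 0 of 12314 rows did (0%), with or without the litter block. Frzb alone had an unadjusted p below 0.05, in the higher direction, where 2.21% of rows were higher and 1.36% lower. With the block there was 1 higher and 1 lower, Frzb and Wif1, where 5.34% and 6.29% of rows were. Groups did not overlap for 1 member, higher, where 4.22% of rows were higher and 5.03% lower without overlap. In every litter the mutant was above its control for 2 members and below it for 3 members, against 15.7% and 22.3% of rows. The median log2 difference was -0.07 over the members and -0.04 over all tested rows.

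The members that kept 1 direction in all 3 litters were Frzb, Sfrp1, Wif1, Wnt5a and Wnt11, and the stretches before the annotated starts of those with an entry are shown here to place these genes in the genome. These are the 250 bases before the RefSeq start on GRCm38.p6, a later build than the mm9 of the expression values, printed in the direction of the gene. Frzb and Wif1 have 1 start each and Wnt11 has 2 starts, and no entry was found for Sfrp1 and Wnt5a. Capitals mark CTTTGA on either strand (TCAAAG where it lies on the other), the core bound by the TCF/LEF factors of canonical Wnt signalling.
Frzb chr2:80447397-80447646, minus strand: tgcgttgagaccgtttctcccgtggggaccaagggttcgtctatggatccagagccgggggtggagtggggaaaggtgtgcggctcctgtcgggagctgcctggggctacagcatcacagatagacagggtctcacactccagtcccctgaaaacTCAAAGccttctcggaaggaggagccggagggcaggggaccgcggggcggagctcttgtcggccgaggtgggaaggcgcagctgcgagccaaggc
Wif1 chr10:121033754-121034003, plus strand: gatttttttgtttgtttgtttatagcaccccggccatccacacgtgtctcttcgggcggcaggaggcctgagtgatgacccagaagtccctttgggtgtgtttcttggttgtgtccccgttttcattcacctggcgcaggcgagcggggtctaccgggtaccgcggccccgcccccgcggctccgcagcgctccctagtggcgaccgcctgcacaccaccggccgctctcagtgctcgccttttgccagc
Wnt11 first start chr7:98834862-98835111, plus strand: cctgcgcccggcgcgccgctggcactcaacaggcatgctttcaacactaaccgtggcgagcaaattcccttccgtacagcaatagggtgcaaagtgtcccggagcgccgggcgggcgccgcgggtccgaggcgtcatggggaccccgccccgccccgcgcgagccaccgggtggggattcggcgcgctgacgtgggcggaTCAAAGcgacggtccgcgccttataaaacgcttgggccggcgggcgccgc
Wnt11 second start chr7:98838595-98838844, plus strand: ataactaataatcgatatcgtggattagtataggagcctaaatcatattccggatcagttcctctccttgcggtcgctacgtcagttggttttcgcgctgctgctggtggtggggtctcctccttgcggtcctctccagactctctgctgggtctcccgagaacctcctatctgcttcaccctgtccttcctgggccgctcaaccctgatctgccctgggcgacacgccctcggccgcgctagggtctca

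Frzb holds 1 match, on the strand opposite to the one printed, which begins 95 bases before the start, and the first Wnt11 start holds 1 on that strand, which begins 50 bases before it, while Wif1 and the second Wnt11 start hold none. Over the 10 starts of the 7 members with an entry, 4 starts held a match, in Dkk1, Frzb, Wnt5b and Wnt11, where 13.8% of 32851 promoters in the table did. TAATTA, a core that homeodomain proteins such as Shox2 can bind and which reads the same on both strands, was in 0 of the 10 stretches and in 4.84% of all promoters. These counts describe letters in a short window, not binding.

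The other secreted Frizzled-related proteins differed less. Sfrp1 stood at 39.4, 55.8 and 55.8 FPKM in the mutants of litters 1, 2 and 3, against 37.2, 43.6 and 47.5 FPKM in the controls. It was higher in the mutant of each litter, at 106%, 128% and 118% of the control, but the columns overlapped between groups. The log2 difference of 0.22 (SE 0.19) was about as large as its error without a litter block. With the block its SE was 0.11 and its unadjusted p in limma 0.0876 (adjusted p = 0.472). Leaving out 1 column gave Sfrp1 values from 0.12 (litter 1 control out) to 0.38 (litter 1 mutant out). Sfrp2, a close relative of Sfrp1 made widely in limb mesenchyme, stood at 227, 341 and 361 FPKM in the mutants and at 232, 349.9 and 311 FPKM in the controls. Its log2 difference was 0.05 (SE 0.25), and its mutants were above their control in 1 of 3 litters. The spread of Sfrp2 followed the litter, with both litter 1 columns well below the others.

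Because Sfrp2 was so abundant, it made up most of the summed level of Sfrp1, Sfrp2 and Frzb. That sum was 394 ± 88.3 FPKM in the mutants and 357 ± 61.1 FPKM in the controls (SD, n = 3), a difference smaller than the SD of either group. Within litters 1, 2 and 3 the sum was higher in each mutant, at 293.9, 427.3 and 460.8 FPKM against 287.8, 403.4 and 380.0 FPKM, which was not tested. Sfrp2 gave 77.2%, 79.9% and 78.4% of it in the mutants of litters 1, 2 and 3, against 80.7%, 86.7% and 81.9% in the controls. The share of Frzb was 9.39%, 7.05% and 9.50% in the mutants, against 6.33%, 2.45% and 5.66% in the controls.

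No Dickkopf gene showed a difference beyond its spread. Dkk1, which blocks Lrp5 and Lrp6 and limits Wnt signalling in limb patterning and programmed cell death, stood at 2.48, 1.96 and 1.33 FPKM in the mutants of litters 1, 2 and 3, against 1.84, 3.67 and 1.37 FPKM in the controls. Its mutants were above their control in litter 1 and below it in litters 2 and 3, and the log2 difference of -0.13 (SE 0.29) had the other sign without the litter 2 control, at 0.15, and without the litter 3 mutant, at 0.0247. Dkk2, a Dickkopf that can inhibit or weakly activate the pathway depending on context, stood at 62.4, 62.2 and 60.1 FPKM in the mutants, against 64.4, 77.5 and 52.5 FPKM in the controls. The mutant values of Dkk2 lay inside the range of the controls, with a log2 difference of -0.06 (SE 0.17) and an SD of 1.29 FPKM in the mutants and 12.53 FPKM in the controls (n = 3). Dkk3, a divergent relative whose part in Wnt signalling is less clear, stood at 12.9, 17.9 and 16.3 FPKM in the mutants and at 13.7, 15.0 and 13.1 FPKM in the controls, a log2 difference of 0.15 (SE 0.16). For Dkk3 it was 0.0551 without the litter 2 mutant and 0.28 without the litter 1 mutant.

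The 3 ligand genes all had differences below 0, none of them past the threshold. Wnt5a, the main polarity ligand of the limb bud, stood at 42.9, 56.2 and 64.2 FPKM in the mutants of litters 1, 2 and 3, against 54.2, 69.8 and 70.3 FPKM in the controls. The mutant held 79.2%, 80.6% and 91.3% of its litter's control, with overlap between the groups. The log2 difference of Wnt5a was -0.26 (SE 0.20), or -0.10 without the litter 1 mutant and -0.22 in the blocked fit without the litter 1 pair. Its unadjusted p in limma was 0.241, and 0.0517 with litter as a block (adjusted p = 0.429). Wnt11, a ligand of cell movement in gastrulation and kidney branching, stood at 39.8, 54.3 and 43.9 FPKM in the mutants, against 53.5, 58.5 and 46.4 FPKM in the controls. It was lower in the mutant of each litter, by a log2 difference of -0.42 in litter 1 but of -0.11 and -0.08 in litters 2 and 3, and -0.20 (SE 0.17) over all. Leaving out 1 column gave Wnt11 values from -0.32 (litter 2 mutant out) to -0.10 (litter 1 mutant out). Wnt5b, the closest relative of Wnt5a, which marks prehypertrophic cartilage, stood at 10.5, 12.6 and 14.1 FPKM in the mutants, or 84.3%, 95.5% and 100.8% of their litter's control. It averaged 12.4 ± 1.78 FPKM in the mutants and 13.2 ± 0.737 FPKM in the controls (SD, n = 3), a log2 difference of -0.09 (SE 0.15).

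The summed level of the 3 ligands was 113 ± 17.0 FPKM in the mutants and 131 ± 10.6 FPKM in the controls (SD, n = 3), with overlap between the groups. Within litters 1, 2 and 3 the sum was lower in each mutant, at 93.24, 123.1 and 122.1 FPKM against 120.2, 141.5 and 130.7 FPKM, which was not tested. Wnt5a gave 46.0%, 45.7% and 52.5% of it in the mutants of litters 1, 2 and 3, against 45.1%, 49.3% and 53.8% in the controls, so its share differed between genotypes by less than it did between litters. Litter 3, whose mutant kept the most Shox2, had the smallest differences for Wif1 (-0.42), Wnt5a (-0.13), Wnt11 (-0.08), Dkk1 (-0.03) and Wnt5b (0.01). This was not so for Frzb, Sfrp1 and Dkk2, whose smallest differences were in litter 1 (0.57, 0.08 and -0.04), nor for Dkk3 and Sfrp2, whose largest were in litter 3 (0.30 and 0.22). Over all tested rows the median was also nearest 0 in litter 3, at -0.07, -0.03 and 0.0032 in litters 1, 2 and 3. A link to the Shox2 level was not tested.

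**Figure D3:**
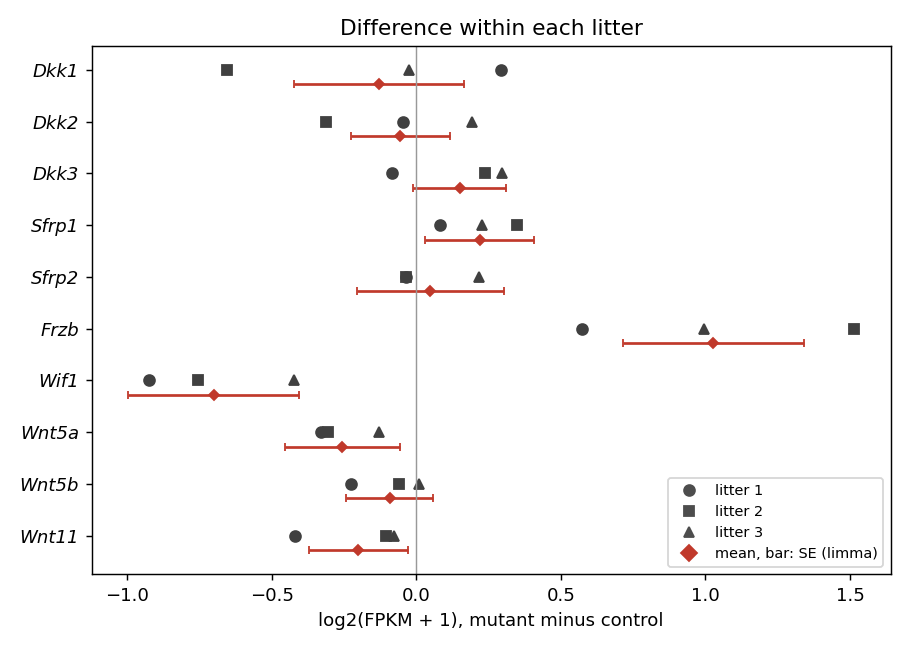
Log2 difference, mutant minus control, on the log2(FPKM + 1) scale for each gene in litters 1, 2 and 3 (grey shapes), with the mean over litters in red. The red bar is the limma SE of the fit without a litter block, so it includes spread between litters. Frzb runs from 0.57 to 1.51 and Wif1 from -0.93 to -0.42, while the other genes lie between -0.66 and 0.35.

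A deposited list of 1352 symbols, beside 23809 distinct names in the expression table, holds 3 of the 10 members, Frzb, Sfrp1 and Wnt5a. The name of the list calls its genes directly repressed by Shox2. Frzb and Sfrp1 were higher in the mutant of each litter, and Wnt5a was lower in each. No source used here says how its genes were picked. If these same samples served to pick them, the list gives no independent evidence of a direction.

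The rest of the pathway was read from 6 lists of 79 genes, of which 56 were tested, and 0 passed in limma with or without the block. Without adjustment 4 genes were higher and 3 lower at p below 0.05, where 2.21% of rows were higher and 1.36% lower. With the block 7 were higher and 6 lower, where 5.34% and 6.29% of rows were. Without overlap between groups there were 6 higher and 3 lower, where 4.22% and 5.03% of rows were. The genes named below were mostly picked by a small p, which favours genes without overlap. The median log2 difference was 0.03. R-spondins are secreted proteins that amplify Wnt signalling by sparing Frizzled receptors from turnover, and 3 of them were tested. Rspo1, the named pathway gene with the log2 difference farthest from 0, stood at 1.18, 2.44 and 2.06 FPKM in the mutants of litters 1, 2 and 3, against 3.41, 5.17 and 3.99 FPKM in the controls, a log2 difference of -0.86 (SE 0.23). Rspo2, needed for limb outgrowth, stood at 5.04, 7.64 and 7.08 FPKM in the mutants, against 3.50, 4.43 and 4.601 FPKM in the controls, a log2 difference of 0.54 (SE 0.19). Rspo3 stood at 25.1, 28.1 and 26.4 FPKM in the mutants, against 16.8, 24.0 and 14.9 FPKM in the controls, a log2 difference of 0.52 (SE 0.19). The groups did not overlap for any of these 3 genes, and their limma adjusted p values with the block were 0.0974, 0.196 and 0.254, against 0.904 for Rspo1 and 1.00 for the others without it.

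Among the other secreted or membrane antagonists, 7 of 14 genes were tested, with a median of -0.20. Sostdc1, a BMP and Wnt antagonist, stood at 10.5, 19.2 and 25.9 FPKM in the mutants of litters 1, 2 and 3, against 20.4, 24.7 and 26.7 FPKM in the controls, a log2 difference of -0.43 (SE 0.32). For Sostdc1 it was -0.0886 without the litter 1 mutant and -0.70 without the litter 3 mutant. Kremen1, a Dickkopf receptor, averaged 12.2 ± 1.95 FPKM in the mutants and 9.05 ± 1.23 FPKM in the controls (SD, n = 3), and Notum, which removes the lipid of Wnt proteins, averaged 2.39 ± 0.675 FPKM in the mutants and 2.92 ± 0.0575 FPKM in the controls (SD, n = 3). Of the 16 other Wnt ligands, 5 were tested and 9 stayed below 1 FPKM in every column. Their median was -0.25, and Wnt2 stood lowest against its control, at 2.65, 2.98 and 3.47 FPKM in the mutants, against 4.67, 4.03 and 4.42 FPKM in the controls, without overlap. Wnt4 had a log2 difference of -0.34 (SE 0.30) and Wnt2b one of -0.25 (SE 0.24), and without the litter 1 mutant these were -0.0935 and -0.0863. In the blocked fit without the litter 1 pair they were -0.26 and -0.12. Wnt4 was lower in the mutant of each litter, and Wnt2b in litters 1 and 3. With the block and all litters the unadjusted p of Wnt4 in limma was 0.0361 (adjusted p = 0.404). Wnt16, named after its values were seen and too low to be tested, stood at 0.866, 1.40 and 1.02 FPKM in the mutants of litters 1, 2 and 3, against 0.549, 0.290 and 0.584 FPKM in the controls, higher without overlap.

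Receptors had a median of 0.07 over 15 tested genes of 16. Fzd9 and Fzd4, both Frizzled receptors, were higher without overlap, at log2 differences of 0.47 (SE 0.19) and 0.37 (SE 0.20), and Fzd6 had one of -0.31 (SE 0.19). Without the litter 2 mutant that of Fzd9 was 0.30, and without the litter 2 control those of Fzd4 and Fzd6 were 0.16 and -0.15. Planar polarity and Dishevelled genes had a median of -0.05 over 11 tested genes of 12. Vangl1, a membrane protein of the polarity branch that Wnt5a feeds, stood at 4.22, 3.95 and 4.74 FPKM in the mutants of litters 1, 2 and 3, against 7.16, 6.64 and 6.004 FPKM in the controls, a log2 difference of -0.52 (SE 0.14) without overlap. Prickle2 and Dvl1, of the same branch, had log2 differences of 0.25 (SE 0.17) and -0.20 (SE 0.15).

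Effectors and targets of the canonical branch had a median of 0.12 over 11 tested genes of 12. Nkd2, an inducible inhibitor of Dishevelled, stood at 19.5, 19.2 and 19.3 FPKM in the mutants of litters 1, 2 and 3, against 14.1, 13.0 and 12.6 FPKM in the controls. Its log2 difference was 0.52 (SE 0.12), without overlap. In limma its unadjusted p of 0.00429 was the smallest of the 56 genes (adjusted p = 0.816), while with the litter block its unadjusted p was 0.00182 (adjusted p = 0.149) and that of Rspo1 was smaller, at 0.000513. Apc, a scaffold of beta-catenin breakdown, had a log2 difference of 0.35 (SE 0.26), and Tcf7l2, a TCF factor, one of -0.44 (SE 0.49). Without the litter 2 control that of Apc was 0.09, and without the litter 1 mutant that of Tcf7l2 was -0.051. These fits kept the other column of the litter. In blocked fits that of Apc was 0.21 without the litter 2 pair and that of Tcf7l2 -0.52 without the litter 1 pair. Apc was higher and Tcf7l2 lower in the mutant of each litter. With the block and all litters their unadjusted p in limma was 0.0307 and 0.0124 (adjusted p = 0.389 and 0.321).

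**Figure D4:**
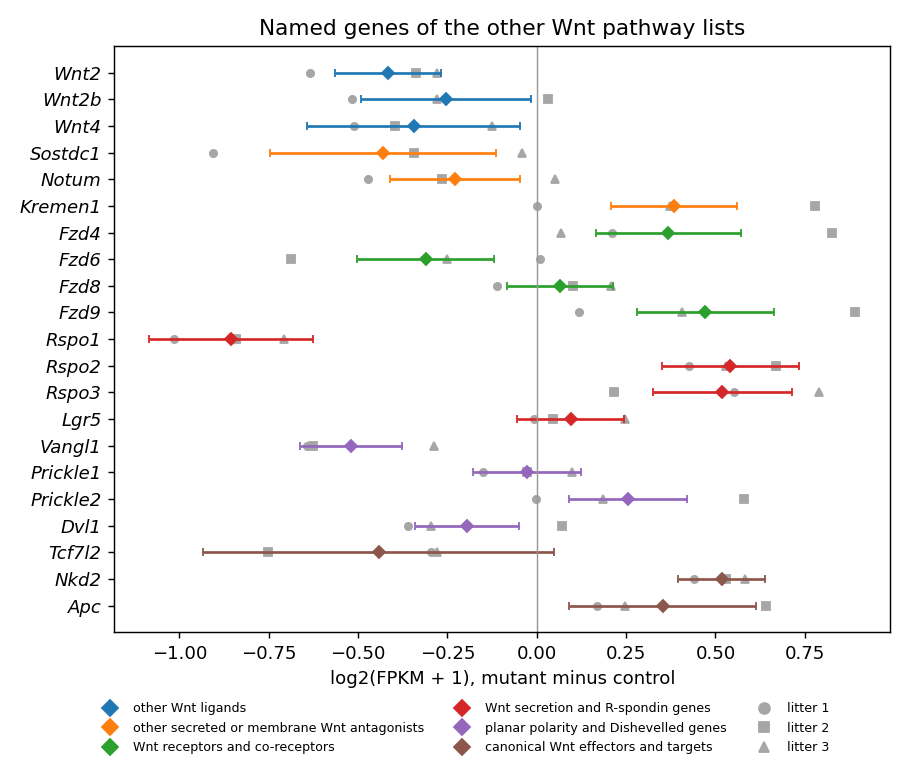
Log2 difference, mutant minus control, on the log2(FPKM + 1) scale for the named genes of the 6 other Wnt pathway lists, with the mean and its limma SE in the colour of the list and the 3 litters in grey. The SE is that of the fit without a litter block. Rspo1 lies at -0.86 and Rspo2 and Rspo3 at 0.54 and 0.52, each on 1 side of 0 in every litter.

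Likeness of pattern was measured as the Euclidean distance between the 3 litter differences of 2 genes, over the 56 tested genes of the lists. Nearest to Frzb, the member with the smallest p, were Fzd9, Rspo2 and Nkd2, at distances of 0.97, 0.98 and 1.08, each with smaller differences than Frzb. Nearest to Sfrp2, the member with the highest level, were Lgr5, Fzd8 and Prickle1, at distances of 0.09, 0.16 and 0.17. Lgr5, an R-spondin receptor, had differences of -0.01, 0.05 and 0.25 in litters 1, 2 and 3, where Sfrp2 had -0.03, -0.04 and 0.22.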

How the data were processed

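RNA from sorted green limb cells was sequenced. Per the submitters' processing notes, TopHat and Cuffdiff were used with mm9, and no source used here gives their versions or the annotation. The deposited values were taken as FPKM, the unit Cuffdiff reports, and per the file headers they carry its geometric normalization, written over every litter's columns, so values of different litters may have been scaled apart. Columns summed to between 347708 and 439109 FPKM, which is no measure of depth. The second deposited file holds gene symbols and no score or other value.

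Mutant and control columns were compared with limma 3.58.1 (R 4.3.3, trended variance, no litter term) on log2(FPKM + 1), which understates differences of low genes. Rows needed at least 1 FPKM in 3 or more of the 6 columns. The Benjamini-Hochberg adjustment ran over all 12314 such rows. The method was tested on simulated data with independent noise and no litter effect, unlike these columns, so that test does not measure its power here. Litter pairs a mutant with a control column per the labels, and across genes the deviations of paired columns from their group means correlated at 0.87, 0.57 and 0.77, so a fit with litter as a block stands beside the first. Alternatives altered the pseudocount, filter, scaling, weights and columns. P-values measure only the spread between columns, which come from different litters within a group and may also differ for technical reasons. An exact permutation test of these columns that ignored litter could not go below p = 0.1. One within litters would have a higher floor, so none was run.

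Members and lists were chosen with earlier results of these data known. Named genes are the members, Shox2, up to 3 tested genes per pathway list with the smallest unadjusted p, and the patterns nearest to Frzb and Sfrp2. Of 155 listed symbols, 153 had a row. Promoters are from RefSeq on GRCm38.p6, searched on both strands.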

Additional observations from a re-analysis of the deposited data

How the results depend on the processing

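Over 17 alternatives, Frzb kept its direction in limma with log2 differences of 0.72 to 1.25, and Wif1 with -0.92 to -0.41. Dkk3, Sfrp1 and Wnt5a also kept theirs. The count of rows called was 0, and it was 15 with column weights (12 higher, 3 lower) and 0 to 1 when 1 column was left out (1 without mutant replicate 3, Shox2, and 1 without control replicate 3). In paired fits with the litter block it was 36 when litter 3 was left out and 534 when litter 2 was, where 2 members and 7 pathway genes passed, namely Frzb, Wif1, Wnt2, Sostdc1, Rspo1, Rspo2, Rspo3, Vangl1 and Nkd2. That fit borrowed the most from the spread of all rows (prior degrees of freedom 52.4, against 4.84 for all 3 pairs), and the cause was not tested. With the block and all litters the count stayed at 0, and 11.6% of rows had an unadjusted p under 0.05.

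Of 537 values for the 32 named genes, 22 had the other sign, all without passing, for 7 genes. Dkk1 was at 0.0818 with column weights, 0.13 in the paired fit without the litter 2 pair and -0.33 to 0.15 when 1 column was left out. Dkk2 was at 0.0174 with quantile normalisation, 0.15 with column weights, 0.0736 without the litter 2 pair and -0.20 to 0.0811 when 1 column was left out. Sfrp2 was at -0.0351 without the litter 3 pair and -0.12 to 0.26 when 1 column was left out. Wnt5b was at -0.18 to 0.0113 when 1 column was left out, and Wnt11 at 0.0142 with column weights. Fzd8 was at -0.0061 without the litter 3 pair and -0.0006 to 0.18 when 1 column was left out. Prickle1 was at 0.0136 with quantile normalisation, 0.0056 with median centring, 0.12 with column weights, 0.0353 without the litter 1 pair and -0.10 to 0.0636 when 1 column was left out. The cause of these sign changes was not tested. Depth is unknown, which limits what can be said of genes near 1 FPKM such as Dkk1, which was left untested by the filter on a mean of 5 FPKM.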
